A study of Drosophila montana with 23 samples.

Results

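The gene couch potato (cpo) was followed through the seasonal course of reproductive diapause in Drosophila montana females. Its members were chosen by name: every probe of the custom array whose annotated name holds cpo as a whole word. This gave 26 of the 1850 gene probes, for 1 of the 218 genes measured. The probe with the highest mean signal over the 22 arrays other than 7ND replicate c, named Dmon_rc_cpo_2_1b, stands for the gene, and the other probes serve as a check. RefSeq lists 1 protein-coding gene with the symbol cpo for D. montana (assembly ASM3504440v1), with 1 transcript. The array files name no genome build, so no position is given for the probes.

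Whole females of the strain 175OJ8 were measured in 8 groups, each array carrying RNA from a pair of pooled flies. Diapausing (D) females were taken at 7 and 50 days of age in autumn conditions (7D, 50D), at 150 days in winter (150D), and at 220 days in spring, 10 days after winter (220D). The 250D females, at 250 days of age and 30 days after winter, had come through diapause, and the labels give their state as non-diapausing. Non-diapausing (ND) females were taken at 7 and 50 days in summer conditions (7ND, 50ND) and at 150 days in winter (150ND). There were 3 arrays a group and 2 for 7ND, and what all groups share is the strain and the use of whole bodies. At 7 and 50 days diapause and season cannot be told apart, since the D females were in autumn and the ND females in summer conditions. One strain was used, so the values describe that strain.

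Couch potato encodes a nuclear RNA-binding protein. In D. melanogaster it is expressed in sensory organs, the nervous system and the ring gland, the source of developmental hormones, and its mutants are sluggish, which gave the gene its name. Natural variation in cpo has been tied to the readiness of D. melanogaster females to enter diapause, the state in which egg development is arrested before yolk is laid down, and the gene has been linked with diapause in the mosquito Culex pipiens. This background made it a candidate gene for diapause in northern flies.

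Signal is given as log2 of the background-subtracted intensity after quantile normalization, averaged over the 8 spots of a probe, and a difference of 1 on this scale is a 2-fold change. The median processed intensity of an array ran between 19.4 and 49.7 on 22 arrays and was 530 on 7ND replicate c, where 98.5% of spots were well above background (59.5% to 90.1% on the others) and 25.4% carried an outlier flag. On that array the flags fell on 77 of the 208 cpo spots. The column of the authors' table for 7ND replicate c correlated with its own scan at r = 0.683 and lay closest to the scan of 7D replicate b, while the other 22 columns lay closest to their own scans (r of 0.990 or higher). Values that rest on 7ND include this array unless stated, and the main ones are also given without it.

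Cpo was higher in diapausing than in non-diapausing females at 7 and at 50 days, by about 2-fold, and no difference passed the test among the 4 groups of diapausing females. It was lower again at 250 days, after diapause had ended. At 150 days the difference between D and ND females was smaller and did not pass the test. The main probe was well above background on every array, with a processed intensity between 118 and 452 on the 22 arrays, and its spots on an array differed by an SD of 0.03 to 0.18 log2.

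**Figure D1:**
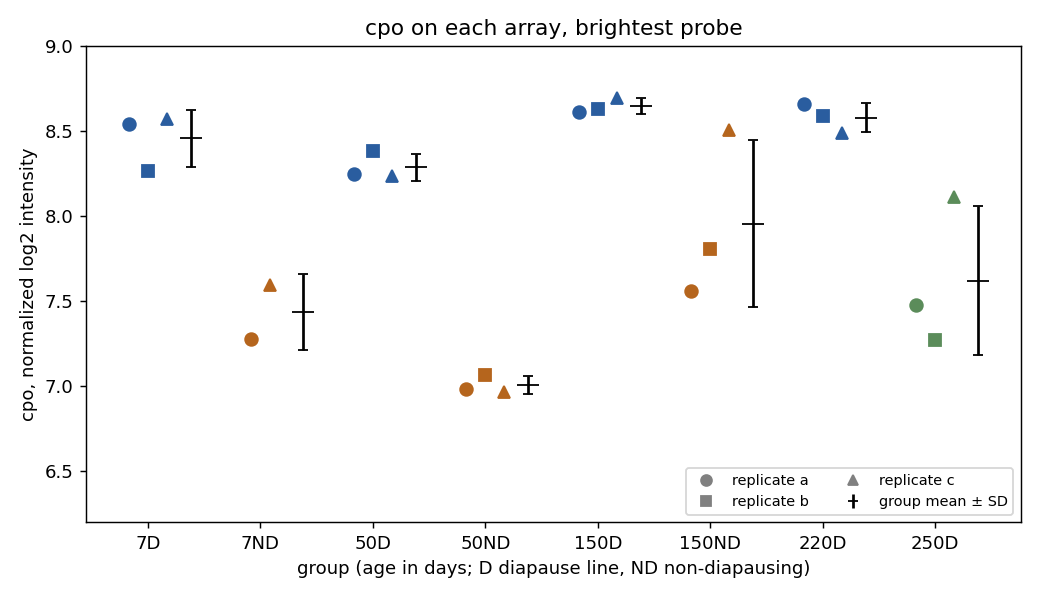
Normalized log2 intensity of the brightest cpo probe on each of the 23 arrays, by group (x axis, age in days with D before ND), with symbols for the replicate letter and the group mean ± SD in black. The 7D, 50D, 150D and 220D arrays lie between 8.23 and 8.70, the 50ND arrays lie between 6.97 and 7.07, and replicate c of 150ND (8.50) and of 250D (8.11) lies above the others of its group.

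At 7 days cpo was at 8.54, 8.26 and 8.57 on the 7D arrays, against 7.28 and 7.59 on the 7ND arrays, the higher being replicate c. All 7D arrays lay above both 7ND arrays (the arrays of these groups did not overlap for 53.7% of all genes). The means were 8.46 ± 0.17 (SD, n = 3) in 7D and 7.44 ± 0.22 (SD, n = 2) in 7ND, a log2 fold change of 1.02 (SE 0.27, limma adjusted p = 0.00637), or 2.03-fold. In this comparison 47.2% of all genes passed (adjusted p under 0.05, either direction), and the median log2 fold change of all genes was 0.61, so cpo was 1 of many. Without 7ND replicate c the log2 fold change was 1.18 (limma adjusted p = 0.00792, 1 7ND array, whose spread is assumed to be that of the other groups). In that fit 46.8% of all genes passed, and their median was 0.05. On the slide that holds 7ND replicate a the difference was 1.26, and on the slide that holds 7ND replicate c it was 0.67.

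The call at 7 days depended on the arrays in the fit and on the scale. With the 5 arrays of 7D and 7ND alone in the fit, the same log2 fold change of 1.02 had a limma adjusted p of 0.182. Without normalization between arrays it turned to -1.15 (adjusted p = 0.0622), and with scaling on the spike-in probes it was 0.12 (adjusted p = 0.908), both with the bright scan of 7ND replicate c in the fit. The second brightest cpo probe, whose mean signal over 22 arrays was 239.1 against 239.6 for the main one, gave 0.73 in the same comparison, with a limma adjusted p of 0.0485 among 218 genes and of 0.0529 in a test over all 1850 probes.

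At 50 days the groups stood farthest apart. Cpo was at 8.25, 8.38 and 8.23 on the 50D arrays, against 6.98, 7.07 and 6.97 on the 50ND arrays. Both groups were tight and did not overlap, as was so for 72.9% of all genes, with means of 8.29 ± 0.08 in 50D and 7.01 ± 0.05 in 50ND (SD, n = 3 each). The log2 fold change was 1.28 (SE 0.24, limma adjusted p = 0.000781), or 2.43-fold, where 31.2% of all genes passed. Within the 3 slides the difference was 1.26, 1.31 and 1.27. With scaling on the spike-in probes it was 1.08 and did not pass (limma adjusted p = 0.147).

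At 150 days both groups had been kept in the same conditions through the winter. Per the paper, they differed in their first days as adults, which were spent in conditions that either induced or prevented diapause. Cpo was at 8.61, 8.63 and 8.70 on the 150D arrays, against 7.56, 7.80 and 8.50 on the 150ND arrays. The 150D arrays lay above all 150ND arrays (no overlap for 33.5% of all genes), but 150ND replicate c came close to them and spread its group widely. The means were 8.65 ± 0.04 in 150D and 7.95 ± 0.49 in 150ND (SD, n = 3 each), a log2 fold change of 0.69 (SE 0.24, 95% interval 0.18 to 1.20), which did not pass (limma adjusted p = 0.0801). Here 11.5% of all genes passed. Within slides the difference was 0.19 on the slide of 150ND replicate c, and 1.05 and 0.83 on the other slides. Without 150ND replicate c the log2 fold change was 0.97 (limma adjusted p = 0.00481). Without 7ND replicate a, 7ND replicate c or 250D replicate c, which enter only through the shared estimate of spread, it was 0.69 and passed as well (adjusted p = 0.0223, 0.0223 and 0.0492).

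Averaged over the 3 ages, cpo was 0.998 log2 higher in D than in ND females (SE 0.147, limma adjusted p = 3.13e-05). This contrast was passed by 56.4% of all genes, 81 higher and 42 lower, and the median of all genes was 0.25. The split was 98 higher and 38 lower with scaling on the 75th percentile, 85 and 70 in the authors' table, 33 and 48 with scaling on the spike-in probes and 23 and 80 without normalization. By the size of its moderated t, cpo stood in place 14 of 218. Without 7ND replicate c the effect was 1.05 (limma adjusted p = 9.91e-06, place 26), where 71.6% of all genes passed, 82 higher and 74 lower. It was 0.26 without normalization and 0.55 with scaling on the spike-in probes, and passed in neither (limma adjusted p = 0.475 and 0.162). The difference between D and ND females changed by 0.26 log2 at 50 compared with 7 days (SE 0.37, limma adjusted p = 0.577), by -0.59 at 150 compared with 50 days (SE 0.34, adjusted p = 0.564) and by -0.33 at 150 compared with 7 days (SE 0.37, adjusted p = 0.497). Without 7ND replicate c the changes from 7 days were 0.10 and -0.49 (adjusted p = 0.895 and 0.391). With all arrays none of these passed, where 8.72%, 4.13% and 9.17% of all genes did, and the intervals were wide: the smaller difference at 150 than at 50 days could lie between -1.31 and 0.13 log2.

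**Figure D2:**
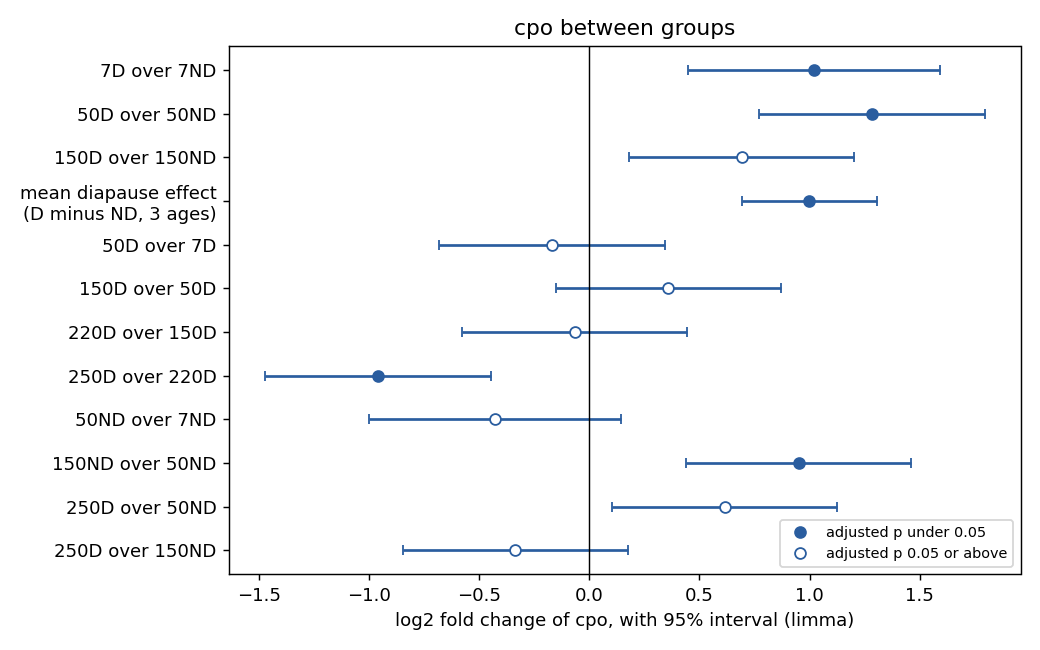
Log2 fold change of cpo in 12 comparisons (y axis) with its 95% interval from limma, filled where the adjusted p was under 0.05. The mean diapause effect lies at 0.998 and 250D over 220D at -0.96, while the 3 steps from 7D to 220D have intervals that include 0.

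From 7D to 220D no step of cpo passed the test. Between 50D and 7D females the log2 fold change was -0.17 (95% interval -0.68 to 0.34, limma adjusted p = 0.670), where 27.5% of all genes passed. Between 150D and 50D females it was 0.36 (-0.15 to 0.87, adjusted p = 0.498), where 7.8% passed, although the 3 arrays of 150D all lay above those of 50D (the arrays of these groups did not overlap for 51.4% of genes). With only the 6 arrays of 150D and 50D in the fit it passed (adjusted p = 0.0458). The 220D arrays were at 8.66, 8.59 and 8.49, with a mean of 8.58 ± 0.08 (SD, n = 3), a log2 fold change of -0.07 over 150D (-0.58 to 0.44, adjusted p = 0.922), where 6.88% passed. The intervals still allow a rise of up to 0.87 log2 between 150D and 50D.

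In 250D females, after diapause had ended, cpo was lower than in 220D females. These groups also differ in age and in time after winter, which cannot be told apart here from the end of diapause. The 250D arrays were at 7.47, 7.27 and 8.11, against 8.66, 8.59 and 8.49 on the 220D arrays. The groups did not overlap (nor did they for 55.0% of all genes), and 250D replicate c was the highest of its group. The mean of 250D was 7.62 ± 0.44 (SD, n = 3), and the log2 fold change over 220D was -0.96 (SE 0.24, limma adjusted p = 0.00703), just short of a 2-fold decrease, where 24.3% of all genes passed. Within slides it was -1.32, -1.18 and, on the slide of 250D replicate c, -0.38. Without 250D replicate b, 1 of the 2 lower arrays, it was -0.79 and no longer passed (adjusted p = 0.0518), and without 250D replicate c it was -1.21. It did not pass without normalization (-0.81, adjusted p = 0.207) or with scaling on the spike-in probes (-0.86, adjusted p = 0.273).

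Among non-diapausing females cpo was lowest at 50 days. The log2 fold change of 50ND over 7ND was -0.43 (SE 0.27, limma adjusted p = 0.193), where 39% of all genes passed, and without 7ND replicate c it was -0.27 (adjusted p = 0.939), where 0.459% passed. In 150ND cpo was higher than in 50ND by 0.95 (SE 0.24, limma adjusted p = 0.0140), where 12.8% of all genes passed. Age and season both differ between these groups and cannot be told apart. The 150ND arrays all lay above the 50ND arrays (no overlap for 30.3% of all genes), but without 150ND replicate c the log2 fold change was 0.68 and did not pass (adjusted p = 0.0719), and without 50ND replicate a or c the adjusted p was 0.0538 and 0.0536. Within slides it was 1.52 on the slide of 150ND replicate c, and 0.49 and 0.84 on the others. With scaling on the spike-in probes the log2 fold change was 0.089 (adjusted p = 0.888).

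The 250D females, which had mature ovaries after diapause, stood between both older non-diapausing groups. Over 50ND their cpo differed by 0.61 log2 (95% interval 0.10 to 1.13, limma adjusted p = 0.602). Of all genes 0% passed in this comparison, while 14 of 218 had an unadjusted p under 0.05. Over 150ND the log2 fold change was -0.34 (-0.85 to 0.18, adjusted p = 0.468), where 11% passed.

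From the highest to the lowest mean the order of the groups was 150D, 220D, 7D, 50D, 150ND, 250D, 7ND and 50ND. No neighbours in this order passed the test. The remaining neighbour pairs not given above were 220D over 7D (log2 fold change 0.12, limma adjusted p = 0.736, passed by 27.5% of genes), 150ND over 50D (-0.33, adjusted p = 0.435, 15.1%) and 250D over 7ND (0.18, adjusted p = 0.588, 31.2%). Without 7ND replicate c the last was 0.34 (adjusted p = 0.816, 0.459%). Over the 8 groups cpo varied with a moderated F of 11.5 (limma adjusted p = 8.85e-05), which 83.5% of all genes passed, and its F was number 36 of 218.

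Of the 28 pairs of groups, cpo passed in 12 (adjusted p under 0.05), and over all genes 29.5% of the pairs passed. Of the 12 pairs that set 7D, 50D, 150D or 220D against 7ND, 50ND or 250D, 11 passed. The exception was 250D over 50D (-0.67, limma adjusted p = 0.0566). In all 12 the arrays did not overlap, where between 45.4% and 85.8% of all genes did not. This split follows the order of cpo's own means, with 150ND set apart, so these counts are in part set by that choice. Among these pairs, 47.2% of all genes passed in 7D over 7ND, 31.2% in 50D over 50ND and 24.3% in 250D over 220D. Of the 6 pairs among 7D, 50D, 150D and 220D, 0 passed in limma, 0 had an unadjusted p under 0.05, and 3 did not overlap. These were 150D over 7D, 150D over 50D and 220D over 50D, where 69.7%, 51.4% and 38.5% of all genes did not. Of the 4 pairs of 7D, 50D, 150D or 220D with 150ND, 0 passed and 2 had an unadjusted p under 0.05. The other pair that passed was 150ND over 50ND. Leaving out 1 array moved some of these calls: 50D over 7ND no longer passed without 7ND replicate a (adjusted p = 0.0543) or 50D replicate b (0.0522), nor did 250D over 7D without 250D replicate b (0.0658). In the other direction 250D over 50D passed without 7ND replicate a or c (0.0197 both), 150ND replicate a (0.0456) or c (0.0222), or 250D replicate c (0.0123). The pair 220D over 150ND passed without 7ND replicate a or c (0.0256 both) or 150ND replicate c (0.00559), 150ND over 7D without 150ND replicate c (0.00701), and 150ND over 7ND without 150ND replicate a (0.0483).

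The levels of cpo ran opposite to those of markers of the ovary, the organ that fills much of a mature female. Over the 22 arrays r with cpo was -0.93 for tws, -0.86 for Histone_H3.3A, -0.83 for Hsp26, -0.79 for Fmr1 and -0.46 for Hsp83. None of the markers is particular to the ovary. All 5 ovary or maternal markers (Hsp26, Hsp83, Fmr1, Histone_H3.3A and tws) were measured, and all were well above background on the 22 arrays. Their summed normalized intensity lay between 13333 and 15686 on the 50D arrays, against 190392 to 195494 on the 50ND arrays. It was 6188 to 6701 on the 7D arrays, against 189491 on 7ND replicate a and 18618 on replicate c. It was 14951 to 18111 on the 150D arrays, against 193168 and 198429 on 150ND replicates a and b and 68278 on replicate c. On the 220D arrays it was 11265 to 16986, and on the 250D arrays 185483, 187099 and, on replicate c, 85379. The 2 arrays on which cpo was high for its group, 150ND replicate c and 250D replicate c, thus had the lowest ovary sums of their groups. In 7ND, replicate c had the lower ovary sum and, by the main probe, the higher cpo. On that bright scan the direction depended on the probe. In normalized log2, Dmon_rc_cpo_2_0b was at 2.38 against 6.69 on replicate a, and Dmon_cpo_13_0b at 10.93 against 6.28.

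**Figure D3:**
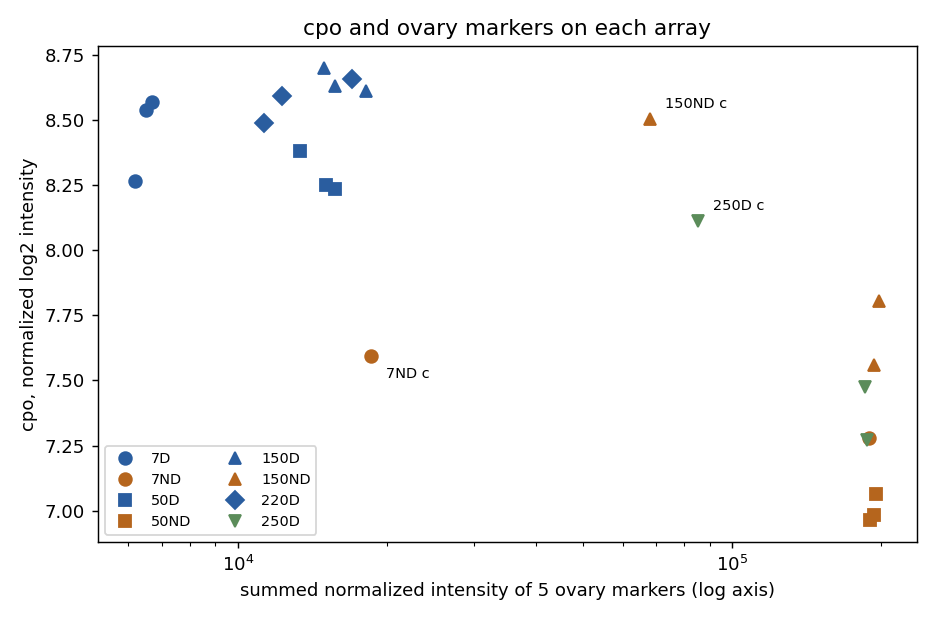
Each point is 1 of the 23 arrays, with the summed normalized intensity of 5 ovary markers on the x axis (log scale) and cpo, normalized log2 intensity, on the y axis; colour and symbol give the group. The arrays with ovary sums of 185483 or more have cpo at 7.80 or lower, and 150ND replicate c (68278) and 250D replicate c (85379) lie between both ends of the x axis.

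Most of the sum was Hsp26, a small heat shock protein gene, on the 50ND, 150ND and 250D arrays (82.1% to 90.0%) and on 7ND replicate a (88.8%), but not on 7ND replicate c (40.9%). The normalized value of Hsp26 was the same on all 50ND arrays, 7ND replicate a, 150ND replicate a and 250D replicate b. Quantile normalization gives spots of equal rank the same value on every array. The closeness of these sums is therefore set by it, and any spread of Hsp26 among these arrays cannot be seen. Without Hsp26 the 4 other markers summed to 11722 to 13314 on the 50D arrays, against 22058 to 27160 on the 50ND arrays. On 150ND replicate c they summed to 11938, within the range of the 150D arrays (11534 to 14662), against 24834 and 31102 on replicates a and b. They summed to 15317 to 18765 on the 250D arrays, the lowest being replicate c, against 10733 to 13066 on the 220D arrays, and to 5492 to 5750 on the 7D arrays, against 21157 and 10995 on 7ND replicates a and c. The groups thus stood nearer each other without Hsp26. In whole females, fewer cells that express cpo and less cpo RNA per cell cannot be told apart, and the part of the ovary's RNA in the cpo differences was not tested. The summed level of 10 neuron markers, from cells in which cpo is known to act in D. melanogaster, overlapped at 50 days. It was 2123 to 2862 on the 50D arrays and 2159 to 2530 on the 50ND arrays. In that comparison 2 of the markers rose and 2 fell, where 41 of all 218 genes rose and 27 fell. The sum of 13 photoreceptor markers did not overlap at 50 days, as 72.9% of all genes did not. It was 56441 to 70068 on the 50D arrays and 30159 to 48913 on the 50ND arrays. At 150 days the sum overlapped, with 39319 to 43987 on the 150D arrays and 22951 to 64212 on the 150ND arrays. Its part in the cpo differences was not tested.

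The same arrays stood apart over the other 217 genes. With genes centred over the 22 arrays, 150ND replicate c correlated at 0.08 with the mean of the 7D, 50D, 150D and 220D arrays and at -0.08 with the mean of the other ND arrays. For 150ND replicates a and b these correlations were -0.64 and -0.57 with the D arrays and 0.67 and 0.57 with the ND arrays. For 250D replicate c they were -0.49 and 0.27, against -0.82 and 0.65 for replicate a and -0.88 and 0.72 for replicate b. Over all genes, then, both arrays lay less on the side of the ND arrays than the others of their groups.

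The 26 cpo probes fall into 13 pairs by name, a probe and its counterpart in the other design or with the prefix rc, over 5 numbers in the probe names (2, 11, 13, 14 and 19, whose meaning is not given in the sources used here). In every pair 1 probe was bright and the other dim. The 13 brighter probes had mean intensities between 66.9 and 239.6 over the 22 arrays and were well above background on all of them. The 13 dimmer ones lay between 4.62 and 31.8, and 10 of them were above background on no more than 8 of the 22 arrays. Among the probes named Dmon, the brighter one carried the prefix rc (reverse complement) for number 2 and lacked it for the other numbers.

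The brighter probes shared one direction at 50 and 150 days. At 50 days all 13 were higher in 50D than in 50ND, with log2 fold changes of 0.51 to 1.68 (median 1.56), and 9 passed among all 1850 probes, of which 17.5% passed. At 150 days all 13 were higher in 150D than in 150ND, by 0.53 to 0.93 (median 0.72), and 1 passed, where 5.14% of all probes did. In 250D compared with 220D females all 13 were lower, by -0.62 to -1.70 (median -1.33), and 8 passed, where 15.0% did. These probes measure one gene on the same arrays and are no replicates of a condition.

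**Figure D4:**
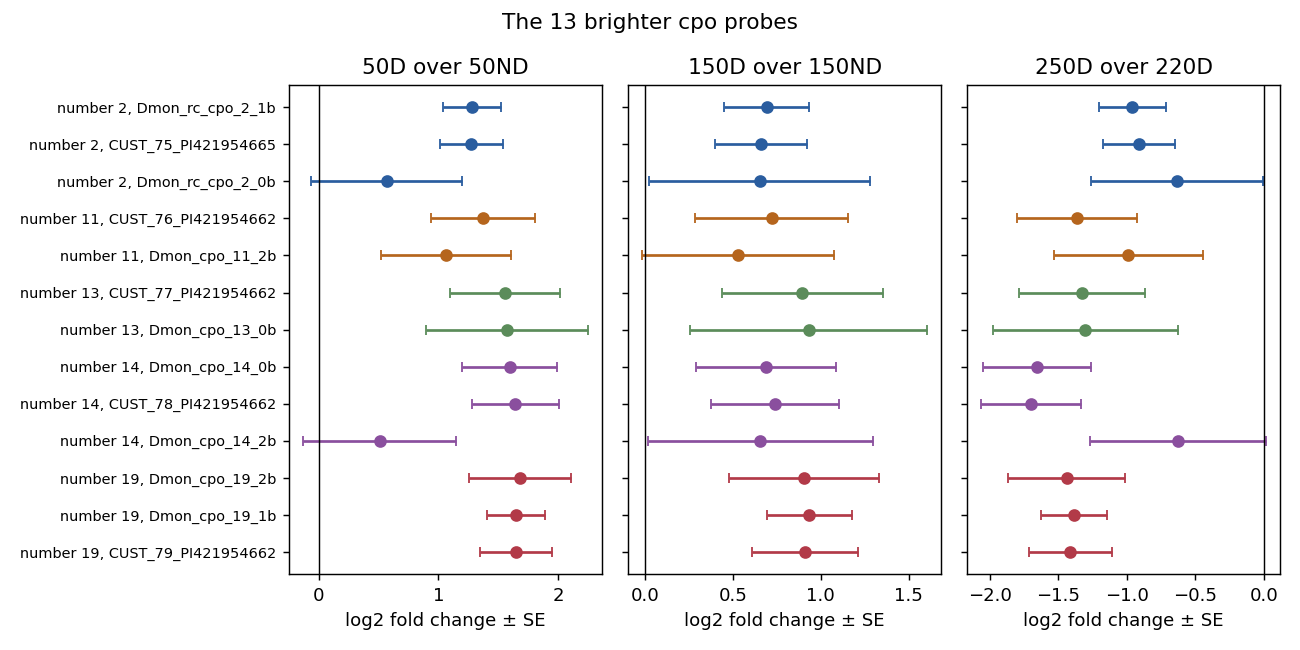
Log2 fold change ± SE of the 13 brighter cpo probes (y axis, by the number in the probe name, each number in 1 colour) for 50D over 50ND, 150D over 150ND and 250D over 220D. The probes of number 19 show the largest differences at 50 days (1.65 to 1.68), and Dmon_rc_cpo_2_0b and Dmon_cpo_14_2b the smallest (0.57 and 0.51).

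With 7ND replicate c the brighter probes did not share a direction at 7 days. The log2 fold changes of 7D over 7ND lay between -0.76 and 3.13, 11 were above 0, and 7 passed, where 41.2% of all probes did. The spread came with 7ND replicate c, on which the dimmer cpo probes had intensities of 52.2 to 2553 and the brighter ones 110 to 3180. On 7ND replicate a probe Dmon_cpo_13_0b was at 104 and on replicate c at 3180, while Dmon_rc_cpo_2_0b was at 142 on replicate a and 152 on replicate c. Without replicate c all 13 were higher in 7D than in 7ND, by 0.90 to 1.56 (median 1.37), and 13 passed, where 35.1% of all probes did.

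Whether the probes differed in the size of their D minus ND difference was tested over the 50- and 150-day arrays. For this, D and ND labels were exchanged within an age (exact permutation test, two-sided, 400 assignments, so that no p can be below 0.005). These 12 tests were chosen after the values were seen. The mean D minus ND difference of the main probe was 0.99. The 3 probes of number 19 exceeded it by 0.31, 0.30 and 0.29, with exact p of 0.005, 0.010 and 0.015, all 0.060 after Benjamini-Hochberg adjustment over the 12 probes. Dmon_rc_cpo_2_0b and Dmon_cpo_14_2b were below it by -0.38 and -0.40 (exact p = 0.050 and 0.060, adjusted p = 0.111 both). The second brightest probe differed from it by -0.02 (exact p = 0.300). No difference passed the adjustment.

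Dmon_rc_cpo_2_0b and Dmon_cpo_14_2b also stood apart over the seasons. Their correlation with the main probe over the 22 arrays was 0.742 and 0.737, while the other 10 brighter probes lay between 0.918 and 0.998. In 150ND compared with 50ND females these probes were at -0.15 and -0.20 log2, where the other 11 were at 0.77 to 1.13. Both come from pairs under numbers 2 and 14, where other probes followed the main one. The mean of the 13 brighter probes gave 1.34 for 50D over 50ND, 0.76 for 150D over 150ND, 1.19 for 7D over 7ND and -1.21 for 250D over 220D.

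Genes whose levels were most like those of cpo over the 22 arrays were inaC, Slob, so, para and Fst. Pearson's r was 0.933 for inaC, an eye protein kinase C of phototransduction, 0.916 for Slob, which encodes a binding protein of the Slowpoke potassium channel, and 0.904 for so (sine oculis), a transcription factor of eye development. It was 0.883 for para, the voltage-gated sodium channel of neurons, whose probe was well above background on only 9 of the 22 arrays, and 0.844 for Fst (Frost), a gene induced by cold in D. melanogaster. Over the 8 group means, with 7ND as replicate a alone, these r values were 0.968, 0.959, 0.949, 0.962 and 0.888. The arrays share groups, slides and the level of the ovary markers, and r was above 0 for 115 of 217 genes, with a median of 0.08.

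The genes that ran most against cpo were tws (r = -0.928), which encodes a regulatory subunit of protein phosphatase PP2A, Cdc37 (-0.918), a partner of the chaperone Hsp90, Trf (-0.917), a relative of the TATA-binding protein, homer (-0.909), a synaptic scaffold, and Adar (-0.903), the enzyme that edits adenosines in RNA. In the mean diapause effect inaC was at 1.92 and Slob at 1.20 log2, against -1.52 for tws, -1.92 for homer and -1.73 for Adar. All passed in limma (adjusted p of 1.55e-04 or lower), as did 56.4% of all genes. The genes were picked by their r with cpo on the same arrays, so the direction of these effects is in part set by that choice. With all 23 arrays, 7ND replicate c included, the r of so, para, Trf and Cdc37 shrank to 0.361, 0.50, -0.552 and -0.515, and their mean diapause effects, 0.08, 0.23, -0.93 and -0.35, did not pass. Without that array, as in the choice of these genes, the effects were 0.85, 0.70, -1.86 and -0.87. Of the 10 genes, 5 stayed among the 5 highest or 5 lowest with all 23 arrays, and 7 with scaling on the 75th percentile.

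**Figure D5:**
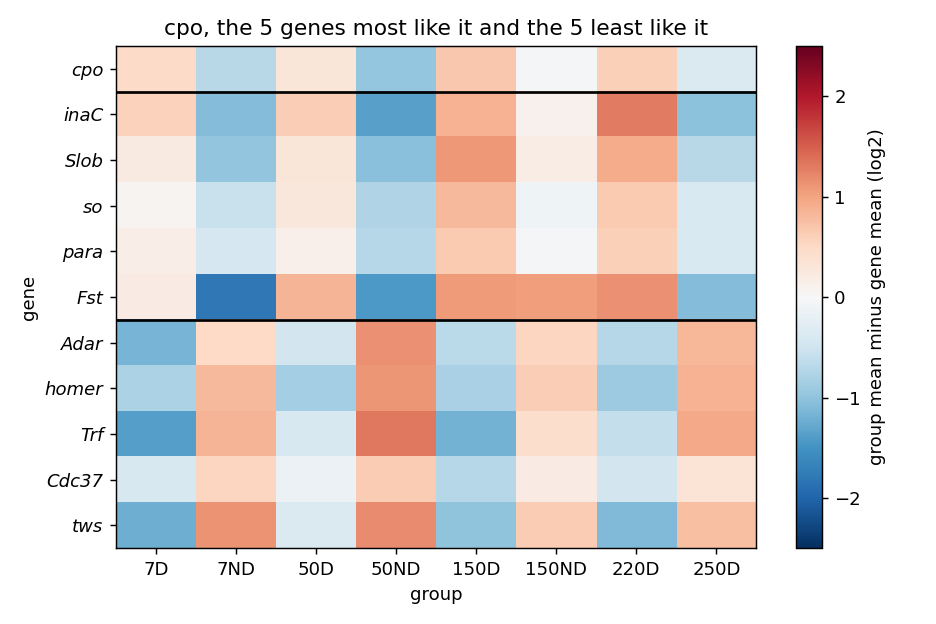
Group means of cpo (top row), of the 5 genes most like it (below the upper line) and of the 5 least like it (below the lower line), each minus the gene's mean over the 8 groups, in log2; columns are the groups and 7ND is replicate a alone. Cpo is low in 50ND, 7ND and 250D, the columns in which tws, homer and Adar are high.

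Among other RNA-binding and RNA-processing genes none passed in the direction of cpo. Of 7 (Fmr1, lark, nonA, Adar, mle, Prp5 and eIF-4a), 0 rose and 3 fell in the mean diapause effect (limma, with counts of 0 and 3 at an unadjusted p under 0.05), with a median of -0.24 against 0.25 over all 218 genes, of which 81 rose and 42 fell. Without 7ND replicate c, 0 rose and 7 fell (limma, 0 and 7 at an unadjusted p under 0.05), with a median of -0.61 against 0.13 over all genes, of which 82 rose and 74 fell. Adar fell by 1.73 log2 (SE 0.21) and Fmr1, a regulator of translation, by 1.38 (SE 0.19), and both were lower at each age. Prp5, named after an RNA helicase of splicing in yeast, fell by 0.88 (SE 0.21), a value that 7 days carried, with -2.06 in 7D over 7ND (-1.25 without 7ND replicate c), against -0.24 at 50 and -0.34 at 150 days, where it did not pass.

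Of 7 other genes linked with diapause or dormancy in insects (tim, per, regucalcin, Thor, Pi3K92E, InR and Fst), 4 rose and 1 fell in this contrast, with and without 7ND replicate c, beside the 56.4% and 71.6% of all genes that passed. The median was 1.05, and 0.97 without that array. Period (per), a core gene of the circadian clock, rose by 1.47 log2 (SE 0.16) and passed at each age. Fst rose by 1.18 (SE 0.33), with 1.24 at 7 days (1.99 without 7ND replicate c), 2.28 at 50 days and 0.02 at 150 days. With all arrays in the fit it passed at 50 days only. Pi3K92E encodes the catalytic subunit of phosphatidylinositol 3-kinase in the insulin pathway. Its probe was well above background on only 12 of the arrays other than 7ND replicate c. Pi3K92E fell by 2.18 (SE 0.45), or by 1.38 without 7ND replicate c. At 7 days it was at -4.27 with that array and -1.86 without it, against -0.96 at 50 and -1.31 at 150 days, where it did not pass.

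Of the 4 insulin signalling genes (InR, ilp7, Pi3K92E and Thor), 1 rose and 1 fell, where 81 of all 218 genes rose and 42 fell. The median was 0.20, and 0.24 without 7ND replicate c. The probes of Pi3K92E and ilp7 were well above background on only 12 and 13 of the arrays other than that one. Insulin-like peptide 7 (ilp7) rose by 0.87 (SE 0.29), and without 7ND replicate c it was at 0.52 and did not pass (limma adjusted p = 0.0734). Thor, a translation repressor of this pathway, was at 0.35 (SE 0.17, adjusted p = 0.0831), with -0.64 at 7 days and 0.68 at 50 days, and it passed only at 150 days, where it was higher (adjusted p = 0.0250).

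Markers of other tissues were counted in the same contrast, where 81 of all 218 genes rose and 42 fell. Of 10 neuron markers 2 rose and 2 fell with all arrays (median 0.30). This even split did not hold without 7ND replicate c, where the median was 0.44. The potassium channel gene Sh rose by 1.72 (SE 0.38), while tipE fell by 1.18 (SE 0.28) and the calcium channel gene cac by 0.85 (SE 0.28). Without that array Sh was at 1.19, tipE at -1.65 and cac at -1.30. Of 13 photoreceptor markers 10 rose and 0 fell (11 and 0 at an unadjusted p under 0.05 in limma, median 0.94, and 1.01 without that array). By age, 8 rose at 7 days and 9 at 50 days, where 67 and 41 of all 218 genes rose and 36 and 27 fell. At 150 days 0 rose and 0 fell, where 15 of all genes rose and 10 fell. In limma 0 of the 13 had an unadjusted p under 0.05 there, with a median of 0.26 against 0.12 over all genes. At that age trpl, a cation channel of phototransduction, was at 0.26, inaC at 0.78 and the opsin gene Rh3 at 0.24. In the mean effect these genes were at 2.05 (SE 0.26), 1.92 (SE 0.31) and 1.51 (SE 0.29).

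Both muscle markers rose, as 81 of all 218 genes did, sls by 1.14 (SE 0.39) and Mhc, the muscle myosin, by 0.75 (SE 0.19). The gut markers had values of both signs over the ages. The mean effect of ninaD was 0.87 (SE 0.36), made of 2.26 at 7 days, -1.62 at 50 days and 1.96 at 150 days, and without 7ND replicate c it was 0.60 and did not pass (limma adjusted p = 0.158). The protease gene Jon25Bi fell by 0.94 (SE 0.28), with -0.90 at 7 days, -2.71 at 50 days and 0.79 at 150 days, of which the value at 50 days passed. Of the 5 ovary markers 0 rose and 5 fell (0 and 5 at an unadjusted p under 0.05 in limma), where 42 of all 218 genes fell. The median was -1.38, and -1.45 without 7ND replicate c. Hsp26 was at -5.68 (SE 0.49), a size set in part by the value it shared on several ND arrays after normalization. The value of tws was -1.52 (SE 0.27), and that of Fmr1, which is also among the RNA-binding genes, was -1.38.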

How the data were processed

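RNA of 23 samples was hybridized to 1-colour custom Agilent arrays, each spot holding an intensity. The deposited scanner files, made by the authors with Feature Extraction 10.7.1.1, give background-subtracted intensity, the median spot and background intensity, and other values, flags of 0 or 1, with no normalization between arrays. The authors also deposited a table of intensity per probe, quantile-normalized with limma per the paper's methods, whose rows were matched to probes by sorted name (median r with the own scan 0.999). Array precision is limited by the number of arrays.

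Here log2 intensity of the 14800 gene spots was quantile-normalized and the spots of a probe were averaged without outlier-flagged ones. Where every one of the 8 spots was flagged (43 times), none was left out. Each gene was read from its brightest probe over 22 arrays. Group means were compared with lmFit and eBayes of limma 3.58.1 (R 4.3.3) over all 23 arrays, with Benjamini-Hochberg adjustment over 218 genes. Passed means an adjusted p under 0.05, and intervals are at the 95% level. The script was tested on simulated data. Groups came from the sample labels. The methods describe the replicates as biological.

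The named genes were cpo, the 5 with the highest and the 5 with the lowest r with cpo, and, from each gene list, at most 3 by the size of the mean diapause effect. Members and lists were chosen with earlier results of these data known. Alternatives were scaling on the 75th percentile, none, scaling on 7 of 10 spike-in probes, normexp with offset 50, the deposited table, averaging a gene's probes, a test of all probes, a filter on dim probes (212 genes), a 2-fold minimum, slide or replicate letter as a term, only the arrays compared, and each array left out. Others were added after seeing the data: the mean of 13 cpo probes, the second brightest probe, and 7ND c, 150ND c and 250D c left out together.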

Additional observations from a re-analysis of the deposited data

Results flagged for a closer look

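Of the 3 dimmer probes under number 14, 2, which no comparison above uses on their own, gave a signal well above background on all 22 arrays other than 7ND replicate c. The mean processed intensity was 31.8 for Dmon_rc_cpo_14_0b and 30.8 for the other (CUST_78_PI421954665), while their brighter counterparts had 134 and 131. Their log2 fold changes in 50D over 50ND were 0.84 (SE 0.50) and 0.94 (SE 0.52), with limma adjusted p of 0.282 and 0.249 over 1850 probes. In 250D over 220D they were 0.47 and 0.50, which did not pass either (adjusted p = 0.626 both), while the brighter probes of these pairs were at -1.65 and -1.70.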

How the results depend on the processing

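Of 423 values of the cpo results under alternatives, 380 kept their direction and their side of the threshold (or, for the count of pairs, came within 1.5 times of it). The cause of the others was not tested, apart from the 2-fold minimum, which by its construction removes 250D over 220D (-0.96), 150ND over 50ND (0.95) and the mean diapause effect (0.998). Without normalization 7D over 7ND turned to -1.15, 50D over 7D to 0.78, 150D over 50D to -0.11 and the effect at 150 minus 7 days to 1.65. There 250D over 220D (-0.81), 150ND over 50ND (0.83) and the mean effect (0.26) no longer passed, 50ND over 7ND (-1.81) and the effect at 50 minus 7 days (2.58) passed, and 4 pairs passed. With spike-in scaling 50D over 7D turned to 0.44, 150D over 50D to -0.55, 250D over 50ND to -0.38 and the effect at 150 minus 7 days to 0.31. There 7D over 7ND (0.12), 50D over 50ND (1.08), 250D over 220D (-0.86), 150ND over 50ND (0.089), the mean effect (0.55) and the F (1.55) no longer passed, and 1 pair did. The 75th percentile turned 220D over 150D to 0.078. The mean of all probes turned the effect at 150 minus 7 days to 0.15, 7D over 7ND (0.48) and 150ND over 50ND (0.60) no longer passed, and 50ND over 7ND (-0.71) did. In the fits of only the arrays compared, 7D over 7ND (1.02) and 150ND over 50ND (0.95) did not pass and 150D over 50D (0.36) did. 150D over 150ND passed with normexp (0.59), in the authors' table (0.72), with the mean of 13 probes (0.76) and without 7ND c, 150ND c and 250D c together (0.97), where 150D over 50D (0.36) passed too. These arrays were chosen after their cpo values were seen.

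Leaving out 1 array gave 0.49 to 0.97 for 150D over 150ND, which passed without 7ND a, 7ND c or 250D c (0.69 each) or 150ND c, -1.21 to -0.79 for 250D over 220D, and 0.68 to 1.15 for 150ND over 50ND. It gave 0.86 to 1.18 for 7D over 7ND and 1.24 to 1.31 for 50D over 50ND, which passed each time. Of the pairs, 10 to 15 passed, with calls both lost and gained. With the replicate letter as a block, 13 pairs passed, 250D over 50D being the one gained (adjusted p = 0.0439), the mean effect was 1.01 and no other call of cpo changed. The labels do not say what a letter stands for. Outside 7ND, deviations from the group means had a median r of 0.10 between arrays of the same letter (-0.49 to 0.60, 63 pairs). Between arrays of different letters it was -0.03 (-0.61 to 0.48, 126 pairs). Whether a letter marks a shared batch was not tested. The median of all genes in 50D over 50ND was 0.13 with quantile normalization, 0.27 with the 75th percentile and -0.04 with spike-in scaling. Over the 22 arrays the main probe was well above background, so depth of signal does not limit it, while the dimmer probes mostly have only a bound.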
